A study of Mus musculus with 22 samples.

Results

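The genes described here encode 9 subunits of the Polycomb repressive complexes: Ezh1, Ezh2, Eed, Suz12, Jarid2 and Mtf2 of complex PRC2, and Cbx2, Cbx7 and Cbx8 of complex PRC1. They were taken by gene symbol from 3 deposited tables of differential expression, in each of which all 9 have a row, among 19781 genes in each of the ESC tables and 19057 in the iPSC table. The tables compare messenger RNA of mouse cells. The sorted ESC-OB GFP+ group (3 samples in the labels) holds cells sorted for green fluorescence from osteoblast cultures of embryonic stem cells (ESC). ESC-OB (3 samples, from passages 20 to 30) are such cultures unsorted, and ESC (3 samples, passages 20 to 30, day 0) are the undifferentiated cells. The iPSC-OB group (2 samples, passages 10 to 20) and the iPSC group (2 samples, passages 10 to 20, day 0) are the same pair made with induced pluripotent stem cells, which are body cells returned to pluripotency. All osteoblast cultures passed through 6 days as embryoid bodies, with retinoic acid at 0.1 µM (added on day 3, washed out on day 5) and without LIF, PD0325901 and CHIR99021, before osteogenic medium, and were 35 to 40 days into differentiation. Every group carries the Col2.3GFP transgene, a GFP reporter under a piece of the collagen type I promoter, so the sort selects cells with an active collagen promoter and not osteoblasts by function. The labels name 1 ESC line and 1 iPSC line, kept on mouse fibroblast feeders or feeder-free, and do not say which samples had which.

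Polycomb proteins keep genes silent through marks on histones. PRC2 methylates lysine 27 of histone H3 through its catalytic subunit, Ezh1 or Ezh2, which works only when bound to Eed and Suz12, while accessory subunits such as Jarid2 and Mtf2 bring the complex to CpG-rich promoters. PRC1 adds ubiquitin to histone H2A through Ring1 or Rnf2, and its Cbx subunits read the methylated lysine. In pluripotent cells both complexes hold lineage regulators silent, Cbx7 is the main Cbx protein of mouse ESC, and in the osteoblast lineage Ezh2 is known to restrain bone formation.

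The 9 genes split the same way in each comparison: Ezh1 and Cbx8 rose, and Ezh2, Eed, Suz12, Jarid2, Mtf2, Cbx2 and Cbx7 fell. At an adjusted p under 0.05 in the authors' deposited tables, 2 of 9 rose and 7 of 9 fell in sorted GFP+ cells, against 39.1% and 32.4% of 18588 genes tested there (71.5% in either direction). In iPSC-OB the same 2 rose and 7 fell, where 26.1% of 17579 genes rose and 23.1% fell (49.2% in either direction), and in ESC-OB again 2 rose and 7 fell, where 38.6% of 18208 genes rose and 31.0% fell (69.6% in either direction). With so many genes called, being called sets no single gene apart. The median log2 change of the 9 genes was -2.78 in sorted GFP+ cells, -1.47 in iPSC-OB and -2.35 in ESC-OB, and the medians of all genes tested were 0.28, 0.15 and 0.26 in the same order. For the 7 genes that fell, the share of all genes tested that changed further in the same direction ran from 4.7% (beyond Mtf2) to 17.5% (beyond Eed) in sorted GFP+ cells, from 3.07% (Jarid2) to 17.6% (Suz12) in iPSC-OB and from 3.7% (Mtf2) to 11.2% (Cbx7) in ESC-OB. For the 2 that rose, it was 32.9% (Ezh1) and 25.3% (Cbx8) in sorted GFP+ cells, 23.9% and 6.9% in iPSC-OB, and 33.0% and 31.5% in ESC-OB. The comparison of sorted cells and that of ESC-OB share their ESC libraries, so their likeness is not independent. In iPSC-OB the calls rest on the authors' normal reference. With a t reference on the 2 degrees of freedom that the labelled samples leave, no gene of 17579 passed (4180 had an unadjusted p under 0.05). The 9 genes had adjusted p between 0.201 and 0.269 with that t reference. The pluripotency gene Pou5f1, at -7.97 ± 0.23 in the authors' deposited table, did not pass either, so that reference sets no gene apart.

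**Figure D1:**
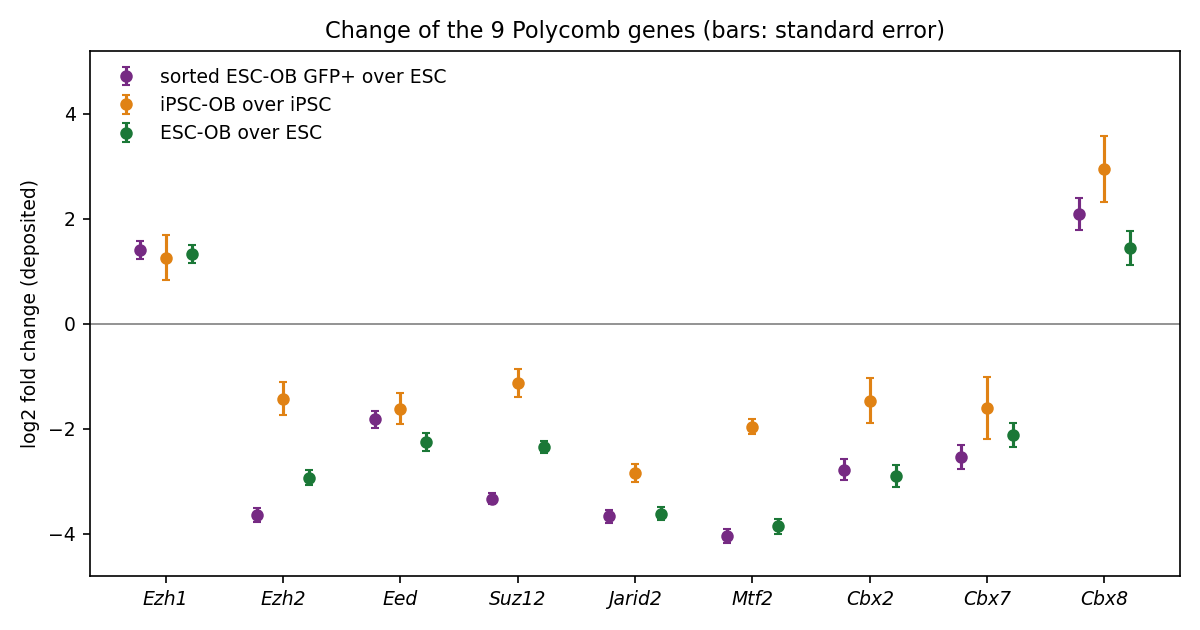
Deposited log2 fold change (vertical axis) of each of the 9 genes (horizontal axis) in sorted ESC-OB GFP+ against ESC (purple), iPSC-OB against iPSC (orange) and ESC-OB against ESC (green). Points are the authors' values and bars 1 standard error; Ezh1 and Cbx8 lie above 0 and the other genes below 0 in all 3 comparisons, with the longest bar for Cbx8 in iPSC-OB (0.63).

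The tables hold no values per sample, so group levels were worked out from the base mean, the fold change and the number of libraries, as CPM (counts scaled to a library total of 1000000) and, to set genes side by side, as CPM per kilobase of the longest annotated transcript. They carry no spread, and their order has no test. If the authors' fold changes were shrunk towards 0, which is not stated, the levels carry that too. The depth read from the lowest base means was 22.4 to 30.1 M reads per library in sorted GFP+ cells, 6.72 to 11.5 M in ESC-OB, 4.49 to 19.5 M in ESC, 10.1 to 17.7 M in iPSC-OB and 10.4 to 13.0 M in iPSC, where 3 libraries were read against 2 in the labels. The samples are bulk, so fewer cells of a type and less RNA per cell cannot be told apart. On the scale per kilobase Ezh1 stood higher in the order of the 9 genes in the differentiated groups than in the undifferentiated ones, Mtf2 and Jarid2 stood lower, and Cbx2 and Cbx8 were the lowest in all 3 differentiated groups. In ESC it ran from Mtf2 (137 CPM per kilobase), Suz12 (111), Eed (100.2), Jarid2 (74.6) and Ezh2 (66.3) down to Cbx7 (48.3), Cbx2 (13.6), Ezh1 (7.91) and Cbx8 (0.617). In iPSC, Jarid2 led at 93.1, followed by Mtf2 (79.5), Ezh2 (77.4), Eed (74.9) and Suz12 (69.3), with Ezh1 (8.31) and Cbx8 (0.2) again lowest. In the differentiated groups Ezh1 stood among the more abundant of the 9 genes: its level per kilobase was 23.5 in sorted GFP+ cells, where only Eed was above it (31.7), and 21.2 in ESC-OB, where Suz12 (23.4) and Eed (22.5) were. In iPSC-OB it was 20.6, below Suz12 (32.7), Ezh2 (29.6), Eed (25.2) and Mtf2 (21.2).

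**Figure D2:**
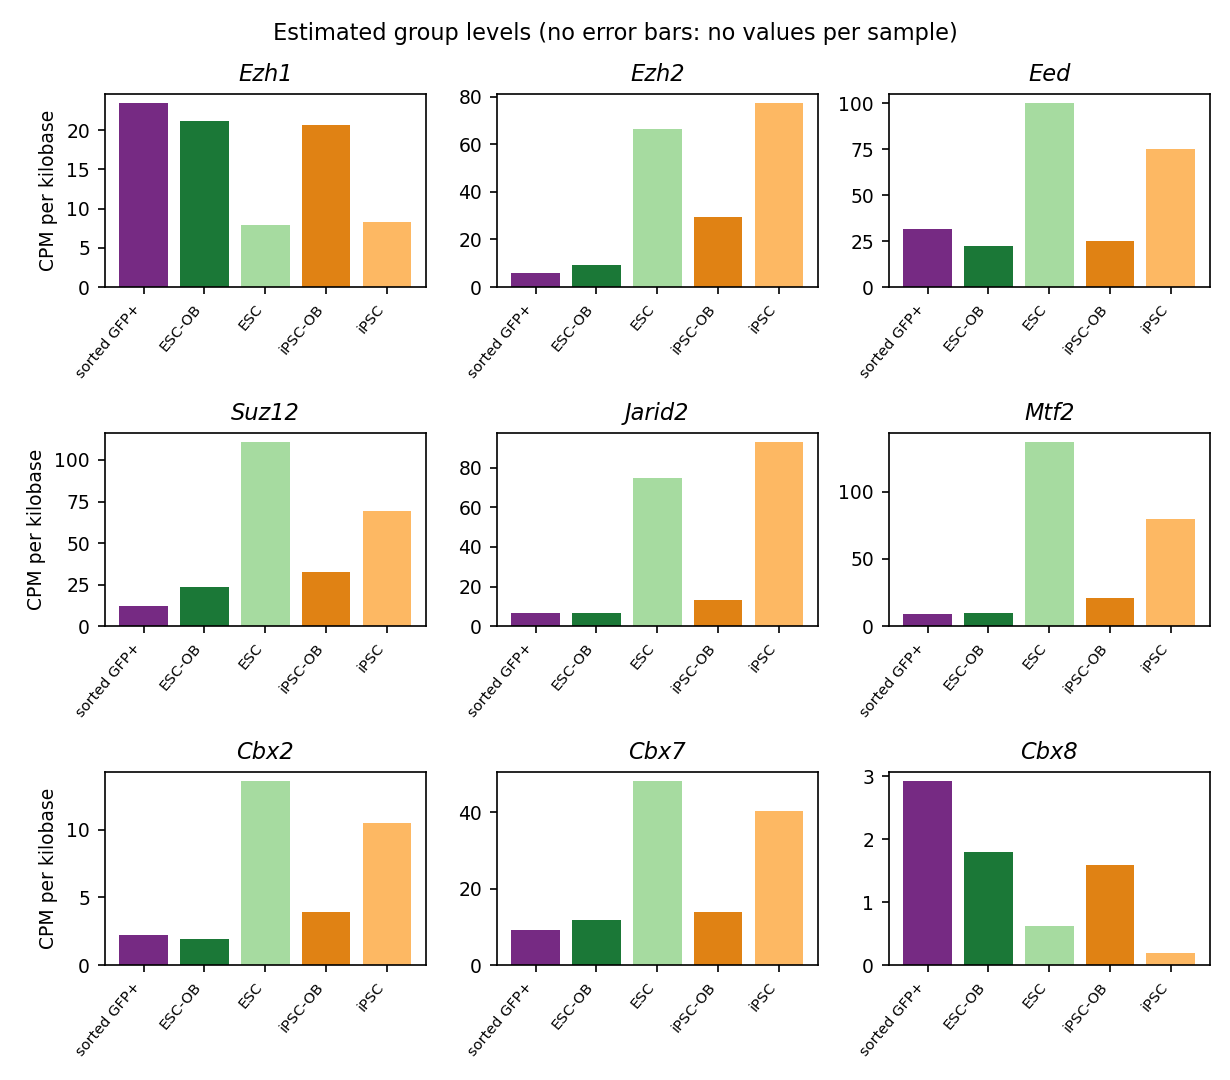
Estimated group level in CPM per kilobase (vertical axes, each from 0 and with its own scale) of the 9 genes in sorted ESC-OB GFP+, ESC-OB, ESC, iPSC-OB and iPSC. Bars are single estimates without error; Ezh1 stands at 23.5 in sorted GFP+, 21.2 in ESC-OB and 7.91 in ESC, and Mtf2 at 9.3, 10.1 and 137.

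The promoters of Ezh2 and Suz12, which fell, and of Ezh1 and Cbx8, which rose, are printed here. They come from RefSeq on build GRCm38.p6, in which 8 of the 9 genes matched with 10 promoters, all but Cbx2. Each runs 5′ to 3′ on the gene's strand from 250 bases before to 30 bases after the annotated start, at chr6:47595001-47595280 on the minus strand (Ezh2), chr11:79992856-79993135 on the plus strand (Suz12), chr11:101226434-101226713 on the minus strand (Ezh1) and chr11:119040884-119041163 on the minus strand (Cbx8). Capitals mark 4 motifs searched by their letters on both strands, so that a match on the other strand shows as its reverse complement: TTTGGCGC and TTTCCCGC, which are E2F-type, TTTGAA, the element called CHR, and CCAAT. The search covered 300 bases of each promoter, which are the bases printed and those up to 50 after the start.
Ezh2: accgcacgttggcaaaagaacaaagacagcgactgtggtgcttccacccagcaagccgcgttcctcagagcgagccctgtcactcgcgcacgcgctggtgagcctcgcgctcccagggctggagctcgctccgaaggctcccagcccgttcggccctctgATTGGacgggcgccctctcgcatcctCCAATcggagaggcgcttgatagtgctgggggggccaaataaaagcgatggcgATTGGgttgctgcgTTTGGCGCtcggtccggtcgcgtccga
Suz12: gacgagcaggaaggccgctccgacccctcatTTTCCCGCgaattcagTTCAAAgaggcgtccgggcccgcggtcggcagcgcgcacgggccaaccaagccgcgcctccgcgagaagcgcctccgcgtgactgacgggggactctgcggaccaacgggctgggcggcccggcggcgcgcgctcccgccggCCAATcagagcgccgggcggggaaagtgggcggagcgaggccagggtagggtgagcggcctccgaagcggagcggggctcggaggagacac
Ezh1: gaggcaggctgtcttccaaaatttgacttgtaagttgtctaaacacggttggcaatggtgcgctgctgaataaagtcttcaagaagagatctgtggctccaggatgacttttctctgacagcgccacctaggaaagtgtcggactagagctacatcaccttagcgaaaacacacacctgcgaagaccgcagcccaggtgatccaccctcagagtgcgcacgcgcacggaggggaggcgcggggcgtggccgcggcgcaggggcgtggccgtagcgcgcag
Cbx8: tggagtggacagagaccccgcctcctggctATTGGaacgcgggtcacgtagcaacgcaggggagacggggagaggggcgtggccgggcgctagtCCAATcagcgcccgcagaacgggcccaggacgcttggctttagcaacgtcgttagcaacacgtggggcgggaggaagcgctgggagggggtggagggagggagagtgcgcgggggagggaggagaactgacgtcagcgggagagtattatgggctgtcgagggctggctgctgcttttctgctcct
E2F factors and the CHR element are known from genes of DNA replication and mitosis, and CCAAT is a common promoter motif. The Ezh2 promoter holds TTTGGCGC from base 4 after the start, a motif in 0.514% of 32851 promoters over the same 300 bases, and CCAAT 3 times. The Suz12 promoter holds TTTCCCGC at -219, a motif in 1.07% of promoters, with TTTGAA at -203 and CCAAT at -61. None of the 4 motifs is in the Ezh1 promoter, and Cbx8 has CCAAT alone, at -220 and -156. The capital stretches do not overlap one another. Among the 10 promoters, either E2F-type motif was in those of Ezh2 and Suz12 only (1.56% of all promoters), TTTGAA in those of Cbx7, Eed, Mtf2 and Suz12 (17.9% of all), and CCAAT in 8 promoters of 7 genes, Ezh1 being the exception among matched genes (37.4% of all). The matched genes Eed, Jarid2, Mtf2 and Cbx7 also fell and hold neither E2F-type motif, so Ezh2 and Suz12 do not stand for them. Jarid2 holds CCAAT alone of the 4 motifs, as does Cbx8, which rose. A match is a run of letters and not a shown binding site.

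The catalytic subunits moved apart. Ezh2, whose complex has the stronger methyltransferase activity, fell 12.4-fold in sorted GFP+ cells, 2.7-fold in iPSC-OB and 7.61-fold in ESC-OB. In the authors' deposited tables these are log2 changes of -3.64 ± 0.13, -1.43 ± 0.31 and -2.93 ± 0.14 (the authors' standard error after each ± sign; adjusted p = 2.43e-166, 2.07e-05 and 4.64e-100). Its estimated level was 16.6 CPM in sorted GFP+ cells and 26.1 CPM in ESC-OB, against 185 CPM in ESC, and 82.6 CPM in iPSC-OB against 216 CPM in iPSC. Ezh1, the paralogue known from non-dividing and adult tissues, changed the other way. It rose by 1.41 ± 0.17, 1.26 ± 0.43 and 1.32 ± 0.17 log2 units in the authors' deposited tables for sorted GFP+ cells, iPSC-OB and ESC-OB (adjusted p = 1.15e-15, 0.00924 and 1.58e-13), or 2.66-, 2.4- and 2.5-fold. Its level was 99.0 CPM in sorted GFP+ cells and 89.3 CPM in ESC-OB, against 33.3 CPM in ESC, and 86.8 CPM in iPSC-OB against 35.0 CPM in iPSC. Ezh1 gained less than Ezh2 lost on the scale of levels: the summed level of both per kilobase was 29.5 CPM in sorted GFP+ cells and 30.6 in ESC-OB against 74.2 in ESC, and 50.3 in iPSC-OB against 85.7 in iPSC. Ezh1 made up 79.8% of that sum in sorted GFP+ cells, 69.4% in ESC-OB and 10.7% in ESC. It made up 41.1% in iPSC-OB and 9.69% in iPSC, so that Ezh2 was still the more abundant transcript in iPSC-OB. The ratio of Ezh1 to Ezh2 was 33.2-fold higher in sorted GFP+ cells than in ESC, 6.49-fold higher in iPSC-OB than in iPSC and 19-fold higher in ESC-OB than in ESC.

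The core subunits fell. Suz12, the scaffold that holds PRC2 together, fell 10.1-fold in sorted GFP+ cells, 2.19-fold in iPSC-OB and 5.09-fold in ESC-OB. In the authors' deposited tables its log2 changes were -3.33 ± 0.11, -1.13 ± 0.26 and -2.35 ± 0.11 (adjusted p = 1.15e-191, 4.05e-05 and 1.86e-93). Its level was 53.8 CPM in sorted GFP+ cells and 102 CPM in ESC-OB, against 485 CPM in ESC, and 143 CPM in iPSC-OB against 303 CPM in iPSC. Eed, which binds the methyl mark that PRC2 makes and so helps to spread it, fell 3.53-fold in sorted GFP+ cells, 3.07-fold in iPSC-OB and 4.78-fold in ESC-OB. The authors' deposited tables give it log2 changes of -1.82 ± 0.16, -1.62 ± 0.30 and -2.26 ± 0.17 (adjusted p = 3.67e-28, 3.57e-07 and 1.63e-40). Its level was 65.5 CPM in sorted GFP+ cells and 46.5 CPM in ESC-OB, against 207 CPM in ESC, and 52.2 CPM in iPSC-OB against 155 CPM in iPSC. Eed and Suz12 stood at near-equal levels per kilobase in ESC-OB (Eed 0.961 of Suz12) and ESC (0.903), while in sorted GFP+ cells Eed was 2.58 times Suz12.

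The accessory subunits had the deepest falls among the 9 genes. Mtf2, a Polycomb-like protein that binds unmethylated CpG DNA, fell 16.4-fold in sorted GFP+ cells, 3.88-fold in iPSC-OB and 14.6-fold in ESC-OB. Its log2 changes in the authors' deposited tables were -4.04 ± 0.13, -1.96 ± 0.15 and -3.86 ± 0.14 (adjusted p = 9.66e-199, 1.11e-34 and 6.89e-170). Its level was 37.8 CPM in sorted GFP+ cells and 41.0 CPM in ESC-OB, against 556 CPM in ESC, and 86.0 CPM in iPSC-OB against 323 CPM in iPSC. Mtf2 thus had the highest level per kilobase of the 9 genes in ESC and the largest fall in the ESC lineage. Jarid2, a relative of the histone demethylases without their activity that helps PRC2 to bind nucleosomes, had the largest fall in the iPSC lineage. It fell 12.7-fold in sorted GFP+ cells, 7.2-fold in iPSC-OB and 12.3-fold in ESC-OB, by log2 changes of -3.67 ± 0.12, -2.85 ± 0.17 and -3.62 ± 0.12 in the authors' deposited tables (adjusted p = 3.06e-206, 3.64e-62 and 3.68e-183). Its level was 39.3 CPM in sorted GFP+ cells and 39.1 CPM in ESC-OB, against 447 CPM in ESC, and 80.1 CPM in iPSC-OB against 558 CPM in iPSC. Levels relative to Suz12 were lower in the differentiated groups by unequal amounts. Mtf2 per kilobase was 0.756 of Suz12 in sorted GFP+ cells and 0.431 in ESC-OB, against 1.23 in ESC, and 0.648 in iPSC-OB against 1.15 in iPSC. Jarid2 was 0.533 of Suz12 in sorted GFP+ cells and 0.278 in ESC-OB, against 0.672 in ESC, and 0.409 in iPSC-OB against 1.34 in iPSC. These ratios carry no test.

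The PRC1 readers also moved apart. Cbx7, the main reader of ESC, fell 5.82-fold in sorted GFP+ cells, 3.03-fold in iPSC-OB and 4.35-fold in ESC-OB. Its log2 changes in the authors' deposited tables were -2.54 ± 0.22, -1.60 ± 0.59 and -2.12 ± 0.22 (adjusted p = 9.67e-31, 0.0157 and 2.98e-21), and its level was 31.4 CPM in sorted GFP+ cells and 40.4 CPM in ESC-OB, against 164 CPM in ESC, and 46.8 CPM in iPSC-OB against 137 CPM in iPSC. Cbx2, a reader that also compacts chromatin, fell 6.85-fold in sorted GFP+ cells, 2.77-fold in iPSC-OB and 7.45-fold in ESC-OB. The authors' deposited tables list it at -2.78 ± 0.20, -1.47 ± 0.43 and -2.90 ± 0.21 (adjusted p = 4.86e-44, 0.00201 and 2.65e-40), and its level was 8.44 CPM in sorted GFP+ cells and 7.46 CPM in ESC-OB, against 51.8 CPM in ESC, and 14.9 CPM in iPSC-OB against 40.0 CPM in iPSC. Cbx8, a reader that takes over a share of PRC1 when mouse ESC differentiate, rose in all 3 comparisons from the lowest level of the 9 genes. It rose 4.26-fold in sorted GFP+ cells (95% interval 2.8 to 6.46), 7.69-fold in iPSC-OB (3.27 to 18.1) and 2.71-fold in ESC-OB (1.75 to 4.2), by log2 changes of 2.09 ± 0.31, 2.94 ± 0.63 and 1.44 ± 0.32 in the authors' deposited tables (adjusted p = 3.13e-11, 1.38e-05 and 1.88e-05). Its level was 10.5 CPM in sorted GFP+ cells and 6.41 CPM in ESC-OB, against 2.21 CPM in ESC, and 5.7 CPM in iPSC-OB against 0.717 CPM in iPSC. Cbx8 remained a minor transcript next to Cbx7: per kilobase, Cbx7 was 3.16 times Cbx8 in sorted GFP+ cells and 6.66 times in ESC-OB, against 78.3 times in ESC, and 8.68 times in iPSC-OB against 202 times in iPSC. In sorted GFP+ cells Cbx8 was 1.32 times Cbx2 per kilobase, and in ESC it was 0.0454 of Cbx2.

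Other subunits of the complexes changed in both directions. Of 32 other Polycomb genes measured, 6 rose, 19 fell and 7 were not called in sorted GFP+ cells (median log2 change -1.06), or 18.8% and 59.4% against 39.1% and 32.4% of all genes tested. In iPSC-OB 10 rose and 12 fell (median -0.07), or 31.2% and 37.5% against 26.1% and 23.1% of all genes, and in ESC-OB 9 rose and 16 fell (median -0.52), or 28.1% and 50.0% against 38.6% and 31.0%. Among Polycomb-like proteins, the Mtf2 paralogue Phf1 rose by 3.00 ± 0.20 in sorted GFP+ cells, 1.89 ± 0.40 in iPSC-OB and 2.42 ± 0.20 in ESC-OB in the authors' deposited tables, and Phf19, the remaining paralogue, fell by 2.20 ± 0.42 in sorted GFP+ cells and 2.41 ± 0.59 in iPSC-OB and was at -0.89 ± 0.43 in ESC-OB without passing (adjusted p = 0.0548). The chromobox gene Cbx6 was at -0.24 ± 0.20, -0.67 ± 0.50 and -0.13 ± 0.20 in sorted GFP+ cells, iPSC-OB and ESC-OB in the authors' deposited tables and passed in none (adjusted p = 0.283, 0.267 and 0.579). Among Polyhomeotic proteins, which link PRC1 complexes to each other, Phc1 fell, with log2 changes of -2.93 ± 0.15, -3.47 ± 0.30 and -2.55 ± 0.15, and Phc2 rose by 3.18 ± 0.18, 0.56 ± 0.24 and 2.26 ± 0.18 in the authors' deposited tables, in that same order of groups. Phc3, of the same family, fell by 0.46 ± 0.13 in sorted GFP+ cells and rose by 1.94 ± 0.23 in iPSC-OB and 1.53 ± 0.13 in ESC-OB in the authors' deposited tables.

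The ligase and Pcgf subunits of PRC1 also rose in part and fell in part. Ring1 rose by 3.15 ± 0.20 in sorted GFP+ cells, 0.84 ± 0.28 in iPSC-OB and 2.57 ± 0.20 in ESC-OB in the authors' deposited tables, while Rnf2, the main H2A ligase of ESC, fell by 1.10 ± 0.17 in sorted GFP+ cells and 0.85 ± 0.17 in ESC-OB and was at 0.22 ± 0.17 in iPSC-OB (adjusted p = 0.307). The Pcgf proteins define which kind of PRC1 is formed. Pcgf6, which marks a variant complex of ESC, fell by 2.34 ± 0.22, 2.18 ± 0.18 and 2.84 ± 0.23, and Pcgf5 rose by 2.40 ± 0.19, 2.76 ± 0.50 and 2.07 ± 0.20 in sorted GFP+ cells, iPSC-OB and ESC-OB in the authors' deposited tables. Bmi1 and Pcgf2 form the PRC1 that carries Cbx proteins. Pcgf2 fell by 3.71 ± 0.14, 0.73 ± 0.28 and 1.30 ± 0.13 in the authors' deposited tables, whereas Bmi1 fell by 1.02 ± 0.20 in sorted GFP+ cells, rose by 2.02 ± 0.30 in iPSC-OB and was at -0.28 ± 0.20 in ESC-OB (adjusted p = 0.205). Within PRC2, the cofactor gene listed as E130012A19Rik (Epop in RefSeq) fell by 3.33 ± 0.24, 2.36 ± 0.36 and 3.97 ± 0.24 and the histone-binding subunit Rbbp4 by 1.19 ± 0.11, 1.56 ± 0.15 and 1.31 ± 0.11 in the authors' deposited tables. Of 10 partners of variant PRC1, 1 rose and 7 fell in sorted GFP+ cells, against 39.1% and 32.4% of all genes tested. In iPSC-OB 2 rose and 5 fell, against 26.1% and 23.1% of all genes. In ESC-OB 1 rose and 6 fell, against 38.6% and 31.0%. Yaf2, which rose by 2.80 ± 0.20 log2 units in sorted GFP+ cells in the authors' deposited table, moved against its paralogue Rybp, which fell by 3.00 ± 0.14.

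**Figure D3:**
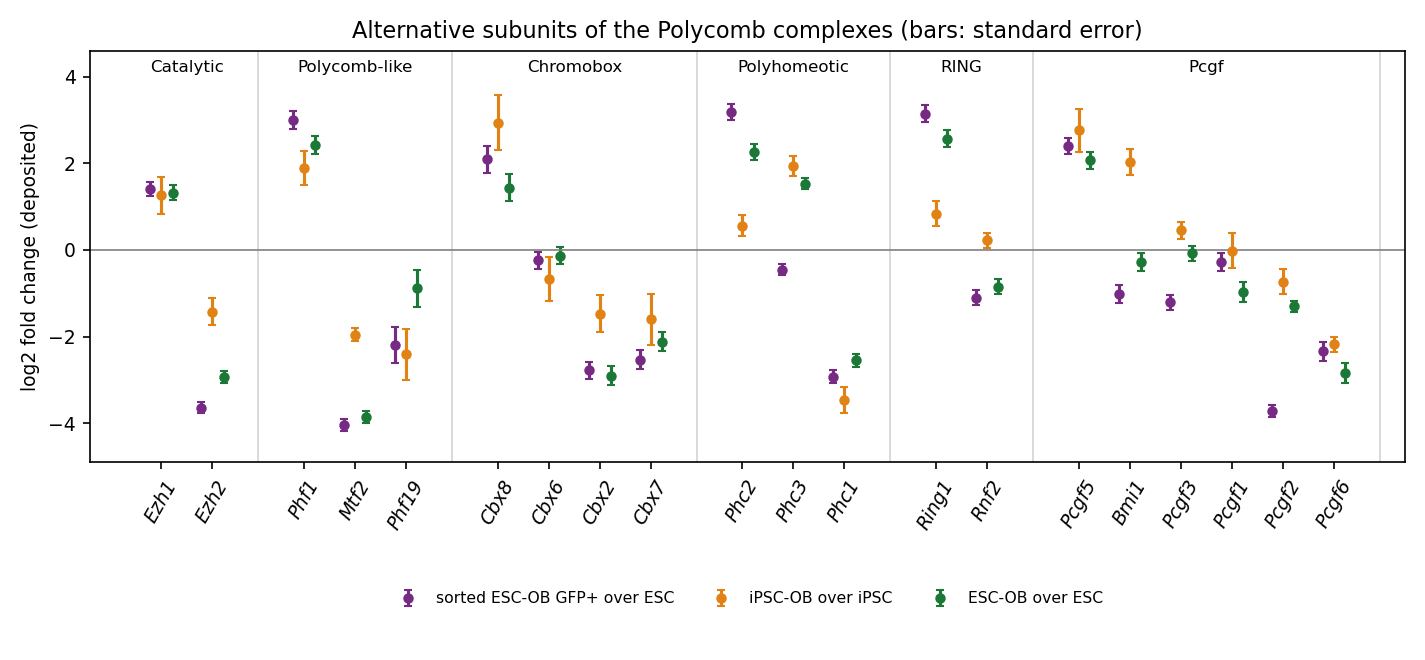
Deposited log2 fold change (vertical axis, bars 1 standard error) of alternative subunits grouped by role (horizontal axis) in sorted ESC-OB GFP+ against ESC (purple), iPSC-OB against iPSC (orange) and ESC-OB against ESC (green). In most roles at least 1 gene lies above 0 and another below 0, such as Phf1 (3.00 in sorted GFP+) and Mtf2 (-4.04), or Cbx8 (2.09) and Cbx7 (-2.54).

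Genes of the enzymes that act against Polycomb, and of subunits of their complexes, mostly fell in sorted GFP+ cells and ESC-OB, with exceptions. A list of 12 genes covered the demethylases of H3 lysine 27 and the Trithorax-type methyltransferases with subunits of their complexes. None of the 12 rose and 10 fell in sorted GFP+ cells. In iPSC-OB 3 rose and 4 fell, and in ESC-OB 2 rose and 8 fell. Of all genes tested, 39.1% rose and 32.4% fell in sorted GFP+ cells, 26.1% and 23.1% in iPSC-OB, and 38.6% and 31.0% in ESC-OB. Ash1l and Kmt2c, of the methyltransferases, rose by 1.25 ± 0.15 and 0.69 ± 0.17 in ESC-OB in the authors' deposited table. In iPSC-OB they rose by 1.32 ± 0.19 and 1.74 ± 0.43. In sorted GFP+ cells Ash1l was not called (0.04 ± 0.15) and Kmt2c fell (-0.80 ± 0.17). The demethylase gene Kdm6a fell by 2.20 ± 0.13 in sorted GFP+ cells, 0.75 ± 0.24 in iPSC-OB and 1.38 ± 0.13 in ESC-OB in the authors' deposited tables. Its paralogue Kdm6b fell by 0.82 ± 0.32 in sorted GFP+ cells, rose by 1.03 ± 0.24 in iPSC-OB and was at 0.55 ± 0.32 in ESC-OB in the authors' deposited tables (adjusted p = 0.0144, 9.59e-05 and 0.108). Of 7 genes of the complex that removes ubiquitin from H2A, 1 rose and 5 fell in sorted GFP+ cells, 1 rose and 3 fell in iPSC-OB, and 1 rose and 4 fell in ESC-OB. Its catalytic subunit gene Bap1 rose by 0.43 ± 0.15 in sorted GFP+ cells in the authors' deposited table. The gene that rose in iPSC-OB and ESC-OB was Foxk1 (0.57 ± 0.17 and 1.62 ± 0.13), which fell in sorted GFP+ cells (-0.79 ± 0.13). The complex's cofactor gene Hcfc1 fell by 3.54 ± 0.21, 1.48 ± 0.21 and 2.19 ± 0.21 in sorted GFP+ cells, iPSC-OB and ESC-OB in the authors' deposited tables.

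Genes known as Polycomb targets in ESC mostly rose. Of 33 lineage regulators with both active and repressive marks in ESC, 24 rose and 6 fell in sorted GFP+ cells (median log2 change 4.0). In iPSC-OB 20 rose and 2 fell (median 1.77), and in ESC-OB 23 rose and 6 fell (median 4.18). Of all genes tested, 39.1% rose and 32.4% fell in sorted GFP+ cells, 26.1% and 23.1% in iPSC-OB, and 38.6% and 31.0% in ESC-OB. The medians of all genes tested were 0.28, 0.15 and 0.26 in the same order. Sox9, a regulator of cartilage and early skeletal cells, rose by 9.69 ± 0.93 in sorted GFP+ cells in the authors' deposited table, and Gata4, of heart and endoderm, by 5.59 ± 0.43 in iPSC-OB in the authors' deposited table. Prrx1, of limb mesenchyme, rose by 9.97 ± 0.94 in ESC-OB in the authors' deposited table. Those that fell include the neural genes Olig2 and Neurog1 in both ESC comparisons, and Olig2 in iPSC-OB. Cdkn2a and Cdkn2b, cell cycle inhibitor genes that lie side by side and that Polycomb is known to repress, did not move together in the ESC lineage. Cdkn2b rose by 3.93 ± 0.19, 1.89 ± 0.39 and 2.48 ± 0.19 in sorted GFP+ cells, iPSC-OB and ESC-OB in the authors' deposited tables. Cdkn2a fell by 4.52 ± 0.36 in sorted GFP+ cells, rose by 2.16 ± 0.39 in iPSC-OB and fell by 1.20 ± 0.33 in ESC-OB in the authors' deposited tables (adjusted p = 6.19e-35, 1.93e-07 and 5.08e-04). Its level was 0.93 CPM in sorted GFP+ cells and 8.92 CPM in ESC-OB, against 19.1 CPM in ESC, and 33.0 CPM in iPSC-OB against 7.12 CPM in iPSC.

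Division genes moved with the Polycomb genes that fell, and their part in these results was not tested. All 20 of 20 division genes fell in sorted GFP+ cells (median log2 change -3.54) and in ESC-OB (median -3.56). In iPSC-OB 15 of 20 fell (median -1.27). The shares of all genes tested that fell were 32.4%, 31.0% and 23.1% in the same order. The summed level of the division genes was 525 CPM in sorted GFP+ cells and 640.2 CPM in ESC-OB, against 6984 CPM in ESC. It was 2418 CPM in iPSC-OB against 6251 CPM in iPSC. Ezh2, which dividing cells are known to express more strongly, lay inside the range of the division genes in all 3 comparisons: 10 of the 20 had a lower log2 change than Ezh2 in sorted GFP+ cells, 9 in iPSC-OB and 18 in ESC-OB. Suz12 lay at 13, 12 and 20 of 20, Eed at 20, 8 and 20, Jarid2 at 9, 1 and 9, and Mtf2 at 6, 6 and 6, so the accessory genes fell further than most division genes. The proliferation marker Mki67 fell by 5.21 ± 0.17 in sorted GFP+ cells and by 2.81 ± 0.17 in ESC-OB and was at -0.52 ± 0.39 in iPSC-OB in the authors' deposited tables (adjusted p = 0.277 in iPSC-OB). E2f1, an activator of replication genes, fell, with log2 changes of -2.53 ± 0.13, -0.87 ± 0.21 and -3.13 ± 0.15 in the authors' deposited tables.

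**Figure D4:**
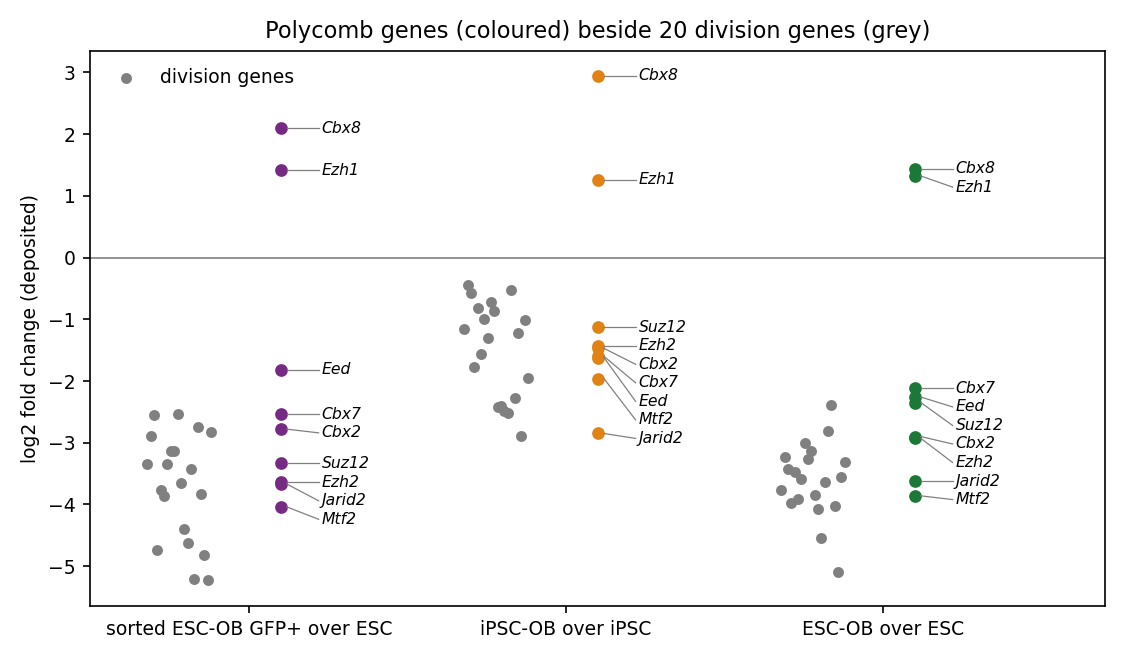
Deposited log2 fold change (vertical axis) of the 9 Polycomb genes (coloured, named) and of 20 division genes (grey) in each of the 3 comparisons (horizontal axis, from left sorted ESC-OB GFP+, iPSC-OB and ESC-OB). Each point is 1 gene; the grey points lie around -3.54, -1.27 and -3.56, and Ezh1 and Cbx8 lie above 0, apart from them.

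Markers of several cell types were measured beside the Polycomb genes. All 8 pluripotency genes fell in every comparison, where 32.4% (sorted GFP+ cells), 23.1% (iPSC-OB) and 31.0% (ESC-OB) of all genes tested fell. The 8 genes summed to 29.9 CPM in sorted GFP+ cells and 38.8 CPM in ESC-OB, against 6183 CPM in ESC. They summed to 52.7 CPM in iPSC-OB against 3252 CPM in iPSC. Of 11 osteoblast genes 8 rose in sorted GFP+ cells, 8 in iPSC-OB and 6 in ESC-OB, against 39.1%, 26.1% and 38.6% of all genes. Alpl, the alkaline phosphatase of mineralising cells that ESC also express, fell in all 3 comparisons, with log2 changes of -3.02 ± 0.69, -3.35 ± 0.61 and -4.93 ± 0.69 in the authors' deposited tables, and Spp1 fell in ESC-OB by 1.61 ± 0.31. In levels, the osteocalcin genes Bglap and Bglap2 were both under 1 CPM in sorted GFP+ cells and ESC-OB, as was Sp7 in iPSC-OB and ESC-OB. The osteoblast list summed to 11860.3 CPM in sorted GFP+ cells and 5522 CPM in ESC-OB, against 1100.4 CPM in ESC, and to 3131 CPM in iPSC-OB against 1386 CPM in iPSC. Col1a1 and Col1a2 made up most of the sums in sorted GFP+ cells (5702 and 4572 CPM), ESC-OB (2587 and 2434 CPM) and iPSC-OB (1283 and 1205 CPM). The sort itself used a collagen type I promoter, so the collagen level of sorted cells is not independent of it. Spp1 and Alpl made up most of the sum in ESC (778 and 308 CPM). Markers of other cell types were present at the same time. The 6 epithelial genes summed to 3701 CPM in sorted GFP+ cells, 1743 CPM in ESC-OB and 498 CPM in ESC. They summed to 1630.0 CPM in iPSC-OB and 1178 CPM in iPSC. Cdh1 and Epcam made up most of the sums in ESC (391 and 99.1 CPM) and iPSC (646 and 285 CPM). Cdh1 fell in all 3 comparisons, and Epcam fell in iPSC-OB and rose in sorted GFP+ cells. The keratin genes Krt5, Krt8, Krt14 and Krt18 rose in all 3 comparisons. The 6 cardiac genes summed to 455, 2230.2 and 11.4 CPM in sorted GFP+ cells, ESC-OB and ESC, and to 447 and 25.5 CPM in iPSC-OB and iPSC. The 6 macrophage and osteoclast genes summed to 156, 138 and 39.0 CPM, and to 106 and 23.4 CPM. Ptprc and Emr1 were under 1 CPM in sorted GFP+ cells and ESC-OB. Acp5, at 21.8 CPM in ESC, fell in ESC-OB, where the other 5 rose. The 5 endothelial genes summed to 80.2, 219 and 122 CPM, and to 154 and 43.5 CPM. Pecam1 alone, which fell in all 3 comparisons, was 1.15 CPM of that sum in sorted GFP+ cells, against 110.4 CPM in ESC, and the other 4 (Cdh5, Emcn, Kdr and Tek) rose in sorted GFP+ cells and ESC-OB. The 5 neural genes summed to 51.9, 226 and 118 CPM, and to 143 and 268 CPM, in the same orders. Gfap rose in all 3 comparisons (146 CPM in ESC-OB against 0.404 CPM in ESC). Tubb3 fell in all 3 (5.14 CPM in ESC-OB against 76.4 CPM in ESC). Nes rose in ESC-OB and fell in sorted GFP+ cells and iPSC-OB. Dcx was called in iPSC-OB alone, where it rose, and Map2 in none. The part of these cells in the Polycomb values was not tested. The level of Col1a1, a collagen gene of fibroblasts and osteoblasts, was 405 CPM in iPSC and 10.3 CPM in ESC, without a test across the separate fits.

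Sorting was set against the unsorted culture by subtracting the ESC-OB change from the sorted GFP+ change, which removes ESC. The standard error ignores the shared ESC libraries and is therefore too large. Of the 9 genes none was higher and 2 were lower in sorted cells, where 10.7% of 19781 genes were higher and 12.1% lower (22.7% in either direction). Suz12 was lower by a difference of -0.99 ± 0.16 log2 units (95% interval -1.30 to -0.67, adjusted p = 1.68e-08), its level being 53.8 CPM in sorted GFP+ cells against 102 CPM in ESC-OB. Ezh2 was lower by -0.71 ± 0.19 (interval -1.08 to -0.34, adjusted p = 0.00143), at 16.6 CPM in sorted GFP+ cells against 26.1 CPM in ESC-OB, and lost the call with a t reference on the residual degrees of freedom (adjusted p = 0.0777). The other genes did not pass: Jarid2 differed by -0.05 (interval -0.39 to 0.29), Mtf2 by -0.18 (-0.55 to 0.20), Ezh1 by 0.09 (-0.39 to 0.57), Cbx2 by 0.12 (-0.45 to 0.69) and Eed by 0.44 (-0.02 to 0.89). The intervals of Cbx7 (-1.03 to 0.19) and Cbx8 (-0.22 to 1.53) reach past 1 log2 unit in 1 direction each. Of the 20 division genes, 2 were lower in sorted cells (Mki67 by -2.40 ± 0.24 and Top2a by -1.69 ± 0.28), 2 were higher (Birc5 by 0.87 ± 0.30 and E2f1 by 0.59 ± 0.20) and 16 were not called, with a median difference of 0.15. Birc5 and E2f1 lose the call with the t reference as Ezh2 does, their unadjusted p by the normal test being larger (0.00304 each against 1.75e-04). Pcgf2 was lower in sorted cells by -2.41 ± 0.19 (adjusted p = 2.11e-34).

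The lineages were set side by side by subtracting the ESC-OB change from the iPSC-OB change, from fits with no shared library. Of the 9 genes 5 were higher and none lower, where 11.0% of 18632 genes were higher and 17.2% lower (28.2% in either direction), and the median difference of the 9 was 1.21 against -0.07 over all genes. All 5 fell less far in the iPSC lineage. Mtf2 differed by 1.91 ± 0.21 log2 units (interval 1.50 to 2.31, adjusted p = 3.93e-18), Ezh2 by 1.49 ± 0.34 (0.83 to 2.16, adjusted p = 1.13e-04), Cbx2 by 1.43 ± 0.48 (0.48 to 2.37, adjusted p = 0.0144), Suz12 by 1.21 ± 0.28 (0.66 to 1.76, adjusted p = 1.37e-04) and Jarid2 by 0.77 ± 0.21 (0.36 to 1.18, adjusted p = 0.00155). Ezh1 did not pass at -0.06 (interval -0.97 to 0.86), nor did Cbx7 at 0.52 (-0.71 to 1.75), Eed at 0.64 (-0.03 to 1.31) or Cbx8 at 1.51 (0.12 to 2.89, adjusted p = 0.0979). With a t reference Cbx2 lost its call (adjusted p = 0.0843). Division genes moved alongside: 19 of 20 were higher by the same measure (median 2.28), Mki67 by 2.29 ± 0.43, and 7 of 8 pluripotency genes were higher (median 2.86), so the smaller falls were not confined to Polycomb genes. The authors' fold changes may be shrunk towards 0, and by unequal amounts, which the processing notes do not state. The largest standard error is 1.29 in the iPSC fit against 1.89 in the ESC fit. The part of any such shrinkage in these differences was not tested.

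**Figure D5:**
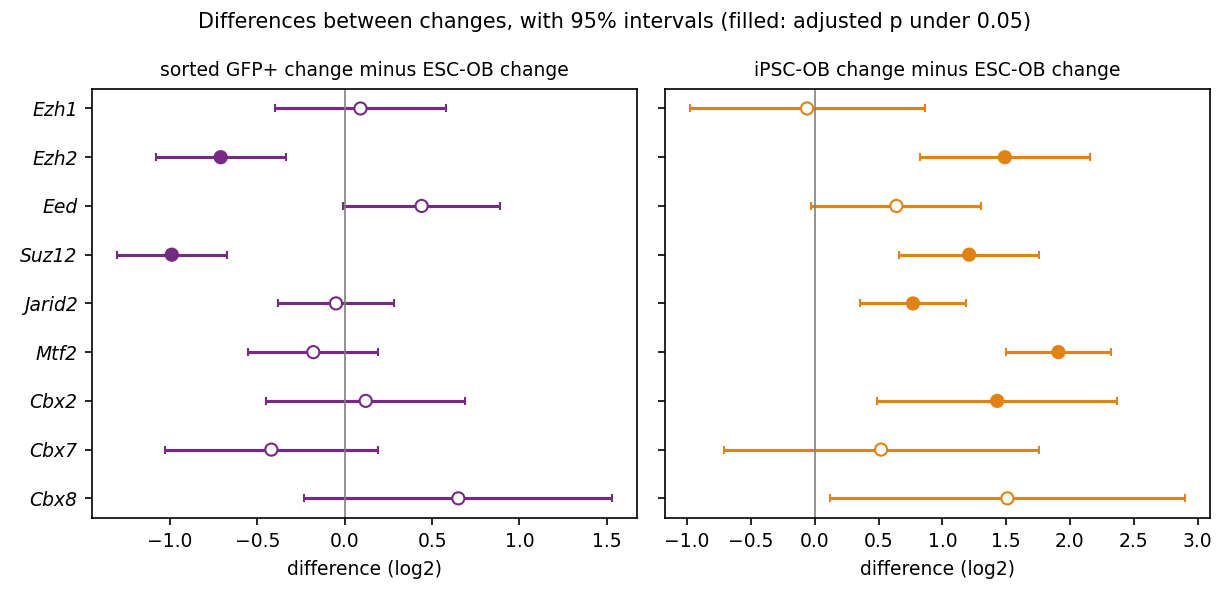
Difference between log2 changes (horizontal axes) for the 9 genes (vertical axis): sorted GFP+ change minus ESC-OB change (left) and iPSC-OB change minus ESC-OB change (right). Points are differences, bars 95% intervals and filled points passed an adjusted p of 0.05: Ezh2 (-0.71) and Suz12 (-0.99) on the left, and Ezh2, Suz12, Jarid2, Mtf2 and Cbx2 on the right, between 0.77 and 1.91.

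Among 9809 genes with a base mean of at least 100 in both fits, those whose 3 log2 changes lay closest to a gene's own were found by Euclidean distance. Nearest to Ezh2 was Ass1, of arginine synthesis, at a distance of 0.13 log2 units, then Ipp (0.22) and Zmym1 (0.28). Nearest to Ezh1 were Atp6v0a1, a proton pump subunit (0.06), Wbp1l (0.11) and Tmed10, of secretory traffic (0.12). Nearest to Cbx7 were Raver1 (0.08), Usp1, a deubiquitinase (0.08), and Cse1l, of nuclear transport (0.15).

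In the GENCODE annotation of GRCm38, exons of Ezh2, Suz12, Eed and Mtf2 overlap genes on the opposite strand, and the sources used here do not say whether counting used strand, so reads of such pairs may be mixed. The partner of Mtf2 is Tmed5, at a base mean of 796 in the ESC fit against 2508 for Mtf2 in the authors' deposited tables, with log2 changes of 0.44 ± 0.16, 0.37 ± 0.20 and 0.58 ± 0.16 in sorted GFP+ cells, iPSC-OB and ESC-OB, opposite in sign to Mtf2. The partner of Eed, E230029C05Rik, had a base mean of 0.747 in the authors' deposited ESC tables, against 1235 for Eed. Gm26625 and Gm26563, which overlap Ezh2 and Suz12, have no row. No pseudogene named after any of the 9 genes (the symbol followed by -ps) is annotated. Pseudogenes under other names were not searched for.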

How the data were processed

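The 9 genes and all gene lists were chosen with earlier results of these data known. Per the submitters' processing notes the authors used STAR 2.4.2a, DESeq2, R 3.2.2 and build mm9, with no roles, formula or strand setting given. Per the file headers, each deposited table gives a base mean (a signal: the mean of normalised counts over the libraries of the authors' fit), the log2 fold change and its standard error, a statistic (a score) and a p-value with its adjusted p-value. Both ESC tables have identical base means and so come from 1 fit, and the iPSC table is a fit of its own. The direction is not stated: the pluripotency genes Pou5f1 and Nanog have large negative values in every deposited log2 column, so positive was read as higher in differentiated cells. The adjusted p-value was missing for 1193 (sorted GFP+), 1478 (iPSC-OB) and 1573 (ESC-OB) genes, which were not counted as tested. Columns of values per sample numbered 0, so replicates could not be compared, and the labels do not say whether they were separate cultures: p-values measure the spread between these libraries, which may be technical. Per the labels' protocols, libraries used a standard kit, or an ultra-low-input kit for scarce RNA. Which samples had which kit is not given, so kit and group cannot be told apart.

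From the deposited values, library numbers and depths were decoded from base means under 1, which are built from whole reads of known worth per library (9 and 5 libraries explained all 2040 and 1456 such values, tolerance 3e-07). CPM levels followed from base mean, fold change and library numbers, with Rn45s left out of a total of 1000000. Differences between changes used the root of the summed squared standard errors, a normal reference and Benjamini-Hochberg adjustment over all genes. Tested on simulated data, 87.5% (sorted minus ESC-OB, 19781 genes) and 88.0% (iPSC-OB minus ESC-OB, 18632 genes) of 200 genes shifted by 2 log2 units were recovered. The 200 were drawn from genes with a base mean over 100 in both comparisons. Noise was normal, sized by the deposited standard errors and independent between comparisons, as the test itself assumes. The shares do not cover smaller shifts, shared libraries, or Cbx8 with its base means of 70.3 and 31.1. Named genes outside the 9 are, per list and comparison, up to 3 called genes with the largest change at a base mean of at least 100, genes moving against their list, and fixed names (Mki67, Top2a, Ccnb1, E2f1, Pou5f1, Nanog, Col1a1, Runx2, Cdkn2a, Cdkn2b, Cdkn1a). Alternatives were another centring, a base mean of at least 10, no filter, a t reference, a test against a log2 size of 1, another standard error for shared controls, library numbers as labelled, and Rn45s kept in the total. Some genes that the rule for named genes covers are not reported here. Calculations used Python 3.11.15, numpy 2.4.6, pandas 2.3.3 and scipy 1.17.1. Calvarial-OB, bone GFP+(hi) and bone GFP+(lo) samples were not analysed here.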

Additional observations from a re-analysis of the deposited data

Results flagged for a closer look

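Each result below was picked out because the same contrast gave changes that differ between groups by a test of the difference itself. No explanation was tested.

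For the sorted GFP+ change minus the ESC-OB change, Suz12 stood at -0.99 and Ezh2 at -0.71 (adjusted p = 1.68e-08 and 0.00143), the call of Ezh2 being lost with a t reference (adjusted p = 0.0777). Pcgf2 and Bmi1, alternative partners in the PRC1 that carries Cbx proteins, were lower by -2.41 ± 0.19 and -0.73 ± 0.29 (adjusted p = 2.11e-34 and 0.0452). The t reference keeps the order of the genes. Bmi1 therefore loses its call too, as its unadjusted p by the normal test was above that of Ezh2 (0.01 against 1.75e-04). Cdkn2a, a Polycomb-repressed inhibitor of the cell cycle, was lower by -3.32 ± 0.49 and Mki67 by -2.40 ± 0.24 (adjusted p = 3.96e-10 and 4.71e-22). Over the 20 division genes 2 were lower, 2 higher and 16 not called (median 0.15). These counts lie near the shares of all genes, 12.1% lower and 10.7% higher.

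For the iPSC-OB change minus the ESC-OB change, Mtf2 stood at 1.91, Ezh2 at 1.49, Cbx2 at 1.43, Suz12 at 1.21 and Jarid2 at 0.77, all falling less far in the iPSC lineage, the call of Cbx2 being lost with a t reference (adjusted p = 0.0843). Mki67 was higher by 2.29 ± 0.43 (adjusted p = 1.25e-06). Bmi1 was higher by 2.30 ± 0.36 and Cdkn2a by 3.36 ± 0.51 (adjusted p = 4.83e-09 and 1.33e-09): both rose in iPSC-OB, while in ESC-OB Cdkn2a fell and Bmi1 was not called. Ring1 was lower by -1.73 ± 0.35 (adjusted p = 7.46e-06), since it rose less in iPSC-OB than in ESC-OB.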

How the results depend on the processing

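Of 207 results for single Polycomb genes under alternatives, 178 kept direction and call, 28 lost the call, 1 gained it and 0 changed sign. Re-centring on the median gene, a base mean of at least 10 and no filter changed no call among the 9 genes. Tested against a log2 size of 1, 7571 of 18588 genes passed in sorted GFP+ cells, 2635 of 17579 in iPSC-OB and 6601 of 18208 in ESC-OB. Of the genes that passed, 58.2%, 58.3% and 62.4% were higher, in the same order. All 9 genes kept their calls in sorted GFP+ cells. Of the 9 genes 1 was then higher and 2 lower in iPSC-OB, and 0 were higher in ESC-OB, where Ezh1 and Cbx8 had adjusted p of 0.16 and 0.384. The 7 genes that fell in ESC-OB kept their calls there. With a t reference 0 genes, and so 0 higher and 0 lower of the 9, passed in iPSC-OB on 2 degrees of freedom (4180 genes and 6 of the 9 had an unadjusted p under 0.05), and also 0 on 3, a setting chosen after seeing that 3 iPSC libraries were read (6233 genes and 7 of the 9). It left 1711 of 19781 genes and 1 of the 9 lower for sorted GFP+ minus ESC-OB, and 3039 of 18632 genes for iPSC-OB minus ESC-OB. The standard error for equal variances gave 6988 of 19781 genes for sorted GFP+ minus ESC-OB and 1 of the 9 higher (Eed, 0.44, adjusted p = 0.025). In that contrast 46.8% of calls were higher, 41.2% after re-centring and 32.1% with the t reference. With library numbers as in the labels, Ezh1 made up 36.9% of Ezh1 plus Ezh2 in iPSC-OB and 8.28% in iPSC. Levels moved by at most 1.23 times. No paired analysis was possible because the columns carry no samples, and leaving out replicates could not be run for the same reason. Cbx8 in iPSC (0.717 CPM) is the level that depth limits most.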

Other observations

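Cbx2 and Cbx8 are consecutive protein-coding genes on chromosome 11 in the RefSeq order for GRCm38.p6, and they did not move together: Cbx2 fell while its neighbour Cbx8 rose in all 3 comparisons. The ratio of Cbx8 to Cbx2 was 29.2-fold higher in sorted GFP+ cells than in ESC, 21.3-fold higher in iPSC-OB than in iPSC and 20.2-fold higher in ESC-OB than in ESC. This was noticed after the values were seen and carries no test.

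The chromobox genes outside Polycomb encode the HP1 proteins of heterochromatin, which read methylated lysine 9 of histone H3 instead. All fell, 3 of 3 in each comparison, where 32.4% (sorted GFP+ cells), 23.1% (iPSC-OB) and 31.0% (ESC-OB) of all genes tested fell. Cbx3 had log2 changes of -4.0 ± 0.20 in sorted GFP+ cells, -1.47 ± 0.15 in iPSC-OB and -1.62 ± 0.20 in ESC-OB in the authors' deposited tables. Cbx5 stood at -3.71 ± 0.15, -1.19 ± 0.17 and -1.78 ± 0.15, and Cbx1 at -3.02 ± 0.12, -2.28 ± 0.20 and -2.59 ± 0.13 in the authors' deposited tables, in the same order of groups.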
